A study of Mus musculus with 24 samples.

Results

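The septins are a family of GTP-binding proteins that join end to end into rods and assemble into filaments and rings beside actin, microtubules and membranes. A rod is built from members of different subgroups, so that a subgroup partner can often take the place of another, while Septin7 has no close substitute. In dividing cells septin rings sit at the cleavage site, and in non-dividing cells septin filaments stiffen the cell cortex and limit diffusion in membranes. Transcripts of 9 mouse septin genes were followed here, Septin2, Septin4, Septin5, Septin6, Septin7, Septin8, Septin9, Septin10 and Septin11. They were chosen by name, and 15 of the 56605 probes on the array carry a RefSeq transcript of one of them, against 22911 gene symbols with a probe in all.

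Single-colour arrays of cultured mouse tumour cells were used, in which the brightness of a probe reports the amount of its transcript. B16-F1 melanoma cells carrying GFP were represented by the parental line B16-M (3 arrays), by B16-D (4 arrays), a line recovered from mice in long-lasting tumour dormancy, and by 3 further lines, B16-D-733 (4 arrays), B16-D-735 (3 arrays) and B16-D-739 (3 arrays). The 3 further lines carry numbers in their titles that the labels do not tie to the second-generation brain-derived lines listed in the growth protocol, and each name stands for 1 line, so that a difference between lines may belong to that line alone. Myeloid leukemia cells were represented by M0-p20 (4 arrays) and J365-p20 (3 arrays), which the labels call leukemia cells and no more. Reading M0-p20 as the parental and J365-p20 as the dormant line of the DA1-3b model rests on their names and on the study's design. Both models came from vaccination of syngeneic mice, with IL-12 in leukemia and GM-CSF in melanoma, and all cells were amplified in vitro before RNA was taken. Nothing in the labels says that arrays of a line came from separate cultures, so the spread between them may be technical. Titles of 3 of 4 B16-D and 3 of 4 B16-D-733 arrays carry 1 shared date, which replicate 0 of both lines and all arrays of the other lines do not. What the date stands for is not stated, and it was fitted as a block, an alternative chosen after seeing the data.

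The arrays lay on 3 slides of 8, and 46% to 55.8% of spots were well above background on 23 arrays. On B16-D replicate 2 that share was 90.3%, and this array was left out of the comparisons. B16-D-733 replicates 1 and 3 have titles ending in the same number, lay on 1 slide and had the highest correlation of any array pair (Pearson r of 0.9976 over 20853 probes). Of 7 melanocyte markers, all were above background on every melanoma array, and Tyrp1, Dct and Mlana on no leukemia array, while Mitf, Tyr and Sox10 were above background in the leukemia lines too. Of 7 blood markers, 6 were above background on every leukemia array and Cd33 on none. Ptprc and Cd33 were above background on no melanoma array compared, while Itgam and Il3ra were above it on all of them. Csf2rb was above background on most arrays of every melanoma line, Mpo on 2 B16-D-733 arrays and Spi1 on 1 B16-M array.

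RefSeq promoters, which run from 250 bases before to 50 bases after a gene's start on GRCm38.p6, matched 7 of the 9 genes, with 16 promoters in all, and none was matched for Septin5 and Septin6. Those of Septin10 and Septin11 are shown because the probe of the first differed most between the tumours and a probe of the second was at a like level in both. In capitals are matches on either strand to GGGCGG, the core of the GC box, and to CACGTG, the palindromic E-box. The Septin10 promoter lies at chr10:59221451-59221750 on the minus strand and the Septin11 promoter at chr5:93093166-93093465 on the plus strand.
Septin10: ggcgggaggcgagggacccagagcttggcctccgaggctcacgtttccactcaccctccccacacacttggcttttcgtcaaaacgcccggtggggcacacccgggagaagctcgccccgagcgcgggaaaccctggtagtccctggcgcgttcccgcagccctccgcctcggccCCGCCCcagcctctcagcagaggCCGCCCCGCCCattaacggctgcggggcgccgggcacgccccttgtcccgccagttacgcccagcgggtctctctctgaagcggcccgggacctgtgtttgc
Septin11: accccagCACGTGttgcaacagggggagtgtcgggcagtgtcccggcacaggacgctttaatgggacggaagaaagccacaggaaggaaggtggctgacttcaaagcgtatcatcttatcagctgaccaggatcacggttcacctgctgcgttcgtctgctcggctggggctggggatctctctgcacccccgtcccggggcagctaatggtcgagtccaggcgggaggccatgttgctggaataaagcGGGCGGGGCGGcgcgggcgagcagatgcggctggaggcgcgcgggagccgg

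Both windows are rich in CpG, with 30 CG pairs for Septin10 and 25 for Septin11 against a median of 7 over all 32851 promoters. GGGCGG was found 3 times for Septin10 and 2 times for Septin11, with 2 of the matches overlapping in each, and it occurs in 35.7% of all promoters. CACGTG was found in Septin11 and not in Septin10 and occurs in 7.15% of all promoters. The E-box letters CATGTG and the TATA letters TATAAA, searched on both strands, were in neither window and occur in 14.2% and 13.6% of all promoters.

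Septin levels by line are given as log2 intensity relative to the 75th percentile of the array, so that a value of 0 equals that percentile and 1 unit is a doubling. Levels are compared between lines and never between probes, since probes differ in brightness for the same amount of RNA. Whether the arrays of 2 lines overlap is given as description alone, since the share of all probes lying apart was not counted. For genes with 2 probes these are called a and b. The probes a and b are A_51_P214487 and A_52_P153327 for Septin2, A_55_P2163812 and A_51_P383991 for Septin4, and A_51_P464530 and A_55_P2039881 for Septin5. They are A_55_P2085170 and A_52_P229959 for Septin6, A_55_P1981670 and A_55_P1981664 for Septin8, and A_66_P118513 and A_51_P211600 for Septin11. Septin7, Septin9 and Septin10 have 1 probe each, A_55_P1955393, A_55_P1988882 and A_52_P663585.

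**Figure D1:**
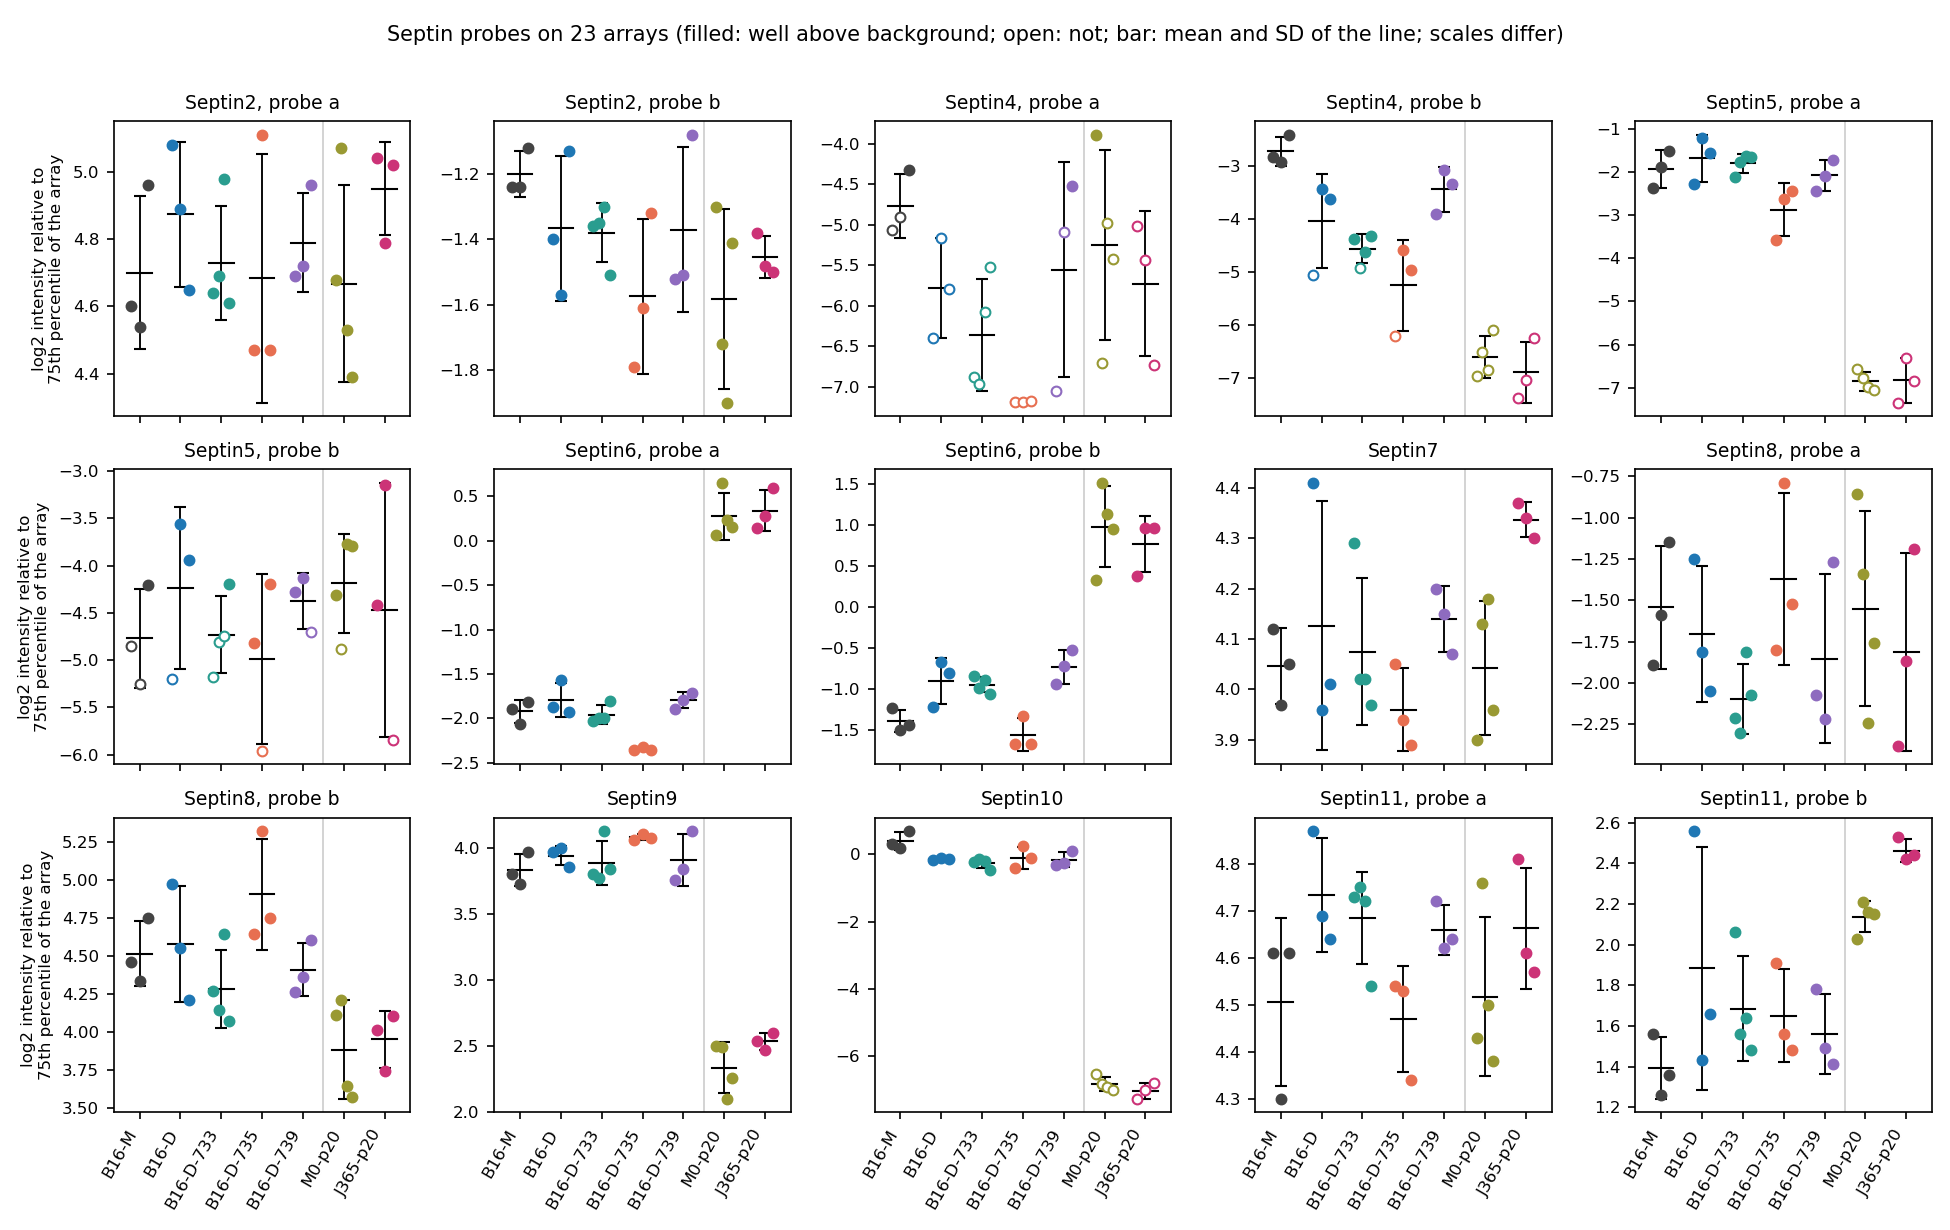
Each panel plots 1 septin probe on 23 arrays, with the 7 lines on the x axis (melanoma left and leukemia right of the grey line) and the log2 intensity relative to the array's 75th percentile on the y axis, on a scale of its own. Filled points are well above background, open points are not, and bars give the mean and SD of a line, so that Septin10 appears filled in all melanoma lines and open in both leukemia lines.

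The comparison of the parental lines asks how the septins of the 2 tumours differ. In B16-M, 6 of 15 septin probes were higher than in M0-p20 and 3 were lower at an adjusted p under 0.05 (limma, Benjamini-Hochberg over 34355 probes), beside 27.4% of all probes higher and 30.9% lower, or 58.3% in all. The share of septin probes called is thus near that of the array as a whole. The median difference was 0.03 over the 15 septin probes and -0.14 over all probes. Septin10, Septin5 probe a and Septin4 probe b passed the filter on dim probes through the melanoma arrays alone, which fixed their direction.

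Among the genes followed, Septin2, Septin4 and Septin5 belong to a group whose members can stand in for each other in septin rods. The ubiquitous member, Septin2, was nearly level, and Septin4 and Septin5 each differed by tumour at 1 of 2 probes. Septin2 probe a was at 4.60, 4.54 and 4.96 in B16-M and at 4.68, 5.07, 4.53 and 4.39 in M0-p20. The ranges overlap, and the difference of 0.03 had a 95% interval from -0.36 to 0.42. Septin2 probe b was higher in B16-M by 0.38 (SE 0.16, adjusted p = 0.0455), a call kept in 7 of 16 alternatives and lost, among others, without any single B16-M array and without M0-p20 replicate 1 or 2 (adjusted p 0.0737 to 0.152).

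Septin4, known from sperm flagella and from the nervous system, was above background on all 3 B16-M arrays at probe b, with -2.84, -2.93 and -2.42. In M0-p20 the same probe gave -6.97, -6.51, -6.86 and -6.10, none of them above background. The lines do not overlap, and Septin4 was at least 3.82-fold higher in B16-M (adjusted p = 8.43e-08 in limma). A bound of this kind sets the mean of the bright line against the dimmest signal that an array of the other line could still measure. It holds for the main scaling, where its log2 is 1.93, while after normexp background correction the fitted log2 difference was 1.01 (adjusted p = 2.84e-05) and lay under it. Septin4 probe a was above background on 1 of 3 B16-M arrays and 1 of 4 M0-p20 arrays and gave a difference of 0.49 (adjusted p = 0.527).

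Septin5, a septin of neurons and platelets that binds syntaxin, was at -2.38, -1.89 and -1.51 in B16-M and at -6.57, -6.78, -6.97 and -7.06 in M0-p20 at probe a. No leukemia array measured it above background, and it was at least 6.68-fold higher in B16-M (adjusted p = 4.56e-11). After normexp the fitted log2 difference was 1.45 (adjusted p = 2.16e-06), under the log2 of the bound, 2.74. Septin5 probe b did not share this pattern. It was above background on 1 of 3 B16-M and 3 of 4 M0-p20 arrays and was -0.58 (SE 0.53, adjusted p = 0.377) in B16-M against M0-p20, so that the 2 probes of Septin5 disagree.

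In the group of Septin6, Septin8, Septin10 and Septin11, which flank Septin7 in the rod, members went opposite ways. Septin10 was at 0.31, 0.19 and 0.69 in B16-M and at -6.52, -6.81, -6.91 and -7.01 in M0-p20. All melanoma arrays were above background and no leukemia array was, and Septin10 was at least 33.3-fold higher in B16-M (adjusted p = 9.85e-18). After normexp the fitted log2 difference was 3.35 (adjusted p = 1.9e-13), under the log2 of the bound, 5.06.

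Septin6, a septin abundant in blood cells and a fusion partner of the mixed-lineage leukemia gene, was higher in the leukemia line. Probe a was at -1.89, -2.06 and -1.81 in B16-M and at 0.06, 0.65, 0.23 and 0.15 in M0-p20, and probe b at -1.24, -1.50 and -1.44 against 0.32, 1.51, 1.13 and 0.95. Neither probe overlaps between the lines. In B16-M probe a fell by 2.19 (SE 0.14, adjusted p = 8.68e-11) and probe b fell by 2.37 (SE 0.22, adjusted p = 1.88e-08) relative to M0-p20, and they were called in all 16 and 17 alternatives run.

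Septin8, which binds synaptic vesicle proteins, was higher in B16-M by 0.63 (SE 0.22, adjusted p = 0.0176) at probe b, while probe a gave a difference of 0.00 (SE 0.35, adjusted p = 0.996). The call of probe b was lost without B16-M replicate 2, M0-p20 replicate 2 or M0-p20 replicate 3 (adjusted p = 0.0882, 0.0520 and 0.0582). Septin11, a widely expressed member found with stress fibres, was level at probe a with a difference of -0.01 (95% interval from -0.26 to 0.24). At probe b Septin11 was at 1.56, 1.26 and 1.36 in B16-M and at 2.03, 2.21, 2.16 and 2.15 in M0-p20. These ranges do not overlap, and probe b fell by 0.74 (SE 0.21, adjusted p = 0.00437) in B16-M relative to M0-p20.

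Septin7, the core subunit without which rods do not form, was at 4.12, 3.97 and 4.05 in B16-M and at 3.90, 4.13, 4.18 and 3.96 in M0-p20. The ranges overlap, and the difference of 0.01 had a 95% interval from -0.24 to 0.26. Septin9, which links septins to microtubules and actin, was at 3.8, 3.73 and 3.97 in B16-M and at 2.50, 2.49, 2.10 and 2.26 in M0-p20. All B16-M arrays were above all M0-p20 arrays, by 1.5 in the fit (SE 0.13, 2.83-fold, 95% interval from 2.35 to 3.40, adjusted p = 4.18e-09), and Septin9 was called in all 17 alternatives, with differences between 1.42 and 1.63.

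**Figure D2:**
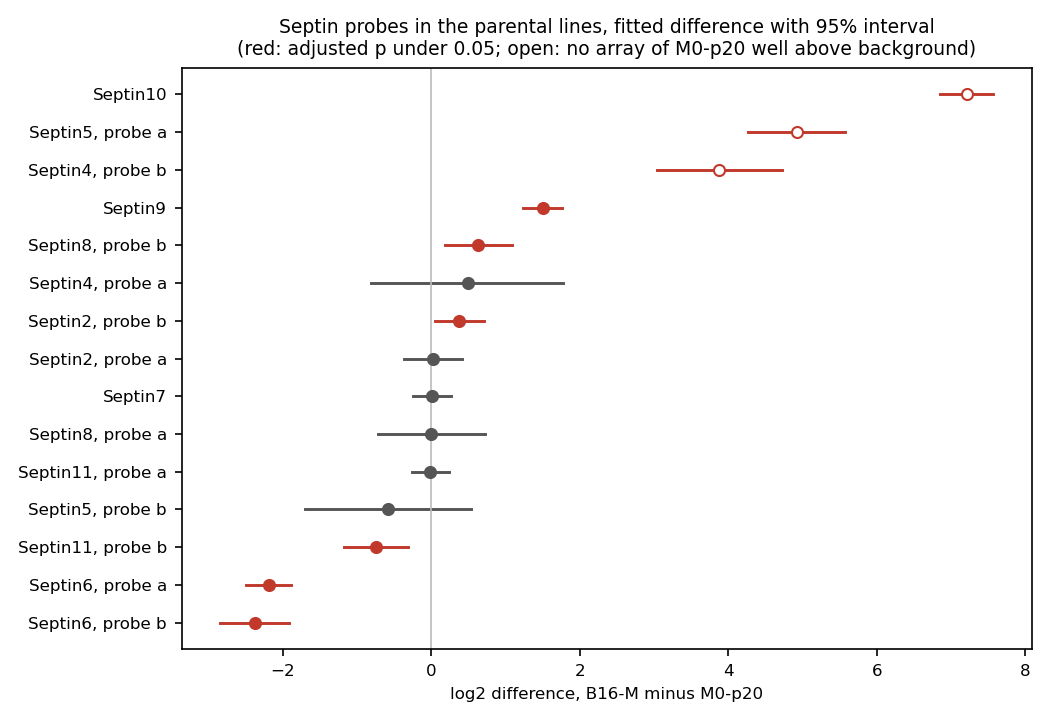
Fitted log2 difference of B16-M minus M0-p20 (x axis) for the 15 septin probes (y axis), with the 95% interval of the fit. Red marks an adjusted p under 0.05, and open points mark probes that no M0-p20 array measured above background, for which the text gives a bound in place of the plotted value (a log2 of 5.06 for Septin10); the Septin6 probes lie at -2.19 and -2.37.

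Of the septins outside the 9 genes, Septin1, Septin3 and Septin12 were lower in B16-M than in M0-p20, 3 of the 3 tested, beside 30.9% of all probes, while Septin14 did not pass the filter. Septin3 and Septin12 passed it through the leukemia arrays alone, which fixed their direction. Septin1, a septin of lymphoid and myeloid cells, fell by 6.53 (adjusted p = 1.02e-15) at its brightest probe and its other probe was at -3.68. Septin3 and Septin12, which no B16-M array measured above background, were at least 3.91-fold and 4.92-fold lower (adjusted p = 1.55e-13 and 8.27e-13).

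Of 10 regulators and partners of septins, 7 were higher in B16-M and 2 were lower, beside 27.4% and 30.9% of all probes. Values are given for 3 Cdc42 effector proteins, which bind septins and change their filaments. Cdc42ep1 was at 3.82 ± 0.05 (SD, n = 3) in B16-M (adjusted p = 1.83e-13), and no size is given since only 1 of 4 M0-p20 arrays measured it above background. Cdc42ep5, above background on no M0-p20 array, was at least 72.4-fold higher (adjusted p = 5.16e-19), and Cdc42ep2 fell by 5.12 (adjusted p = 2.02e-09). Cdc42ep1 and Cdc42ep5, both among the 7 higher, passed the filter on dim probes through the melanoma arrays, which fixed their direction. Of 15 tested genes of cytokinesis, 5 were higher and 6 lower, beside the same shares of all probes. Diaph1, a formin, fell by 2.20 (adjusted p = 5.51e-10) and Prc1, a midzone protein, was 0.93 higher (adjusted p = 7.14e-06), while for Diaph3 the brightest probe was 2.25 higher (adjusted p = 4.28e-10) and another was at -0.15.

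The dormancy comparisons ask whether septin transcripts differ between dormant and parental cells. In the melanoma model 14 septin probes were tested in each comparison and differences were few. In B16-D against B16-M, 0 of 14 were called (limma), with 3 at an unadjusted p under 0.05, beside 3.78% of all probes called. In B16-D-733 against B16-M, 2 were lower, Septin4 probe b and Septin10, beside 2.6% of all probes lower and 5.62% called in all. In B16-D-735 against B16-M, 1 was lower, Septin4 probe b, beside 2.01% lower and 5.01% called. In B16-D-739 against B16-M, 1 was higher, Septin6 probe b, beside 2.07% higher and 3.71% called. The 4 comparisons share the B16-M arrays. The median absolute difference over septin probes was 0.20, 0.18, 0.25 and 0.16 in this order, against 0.26, 0.20, 0.21 and 0.19 over all probes.

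**Figure D3:**
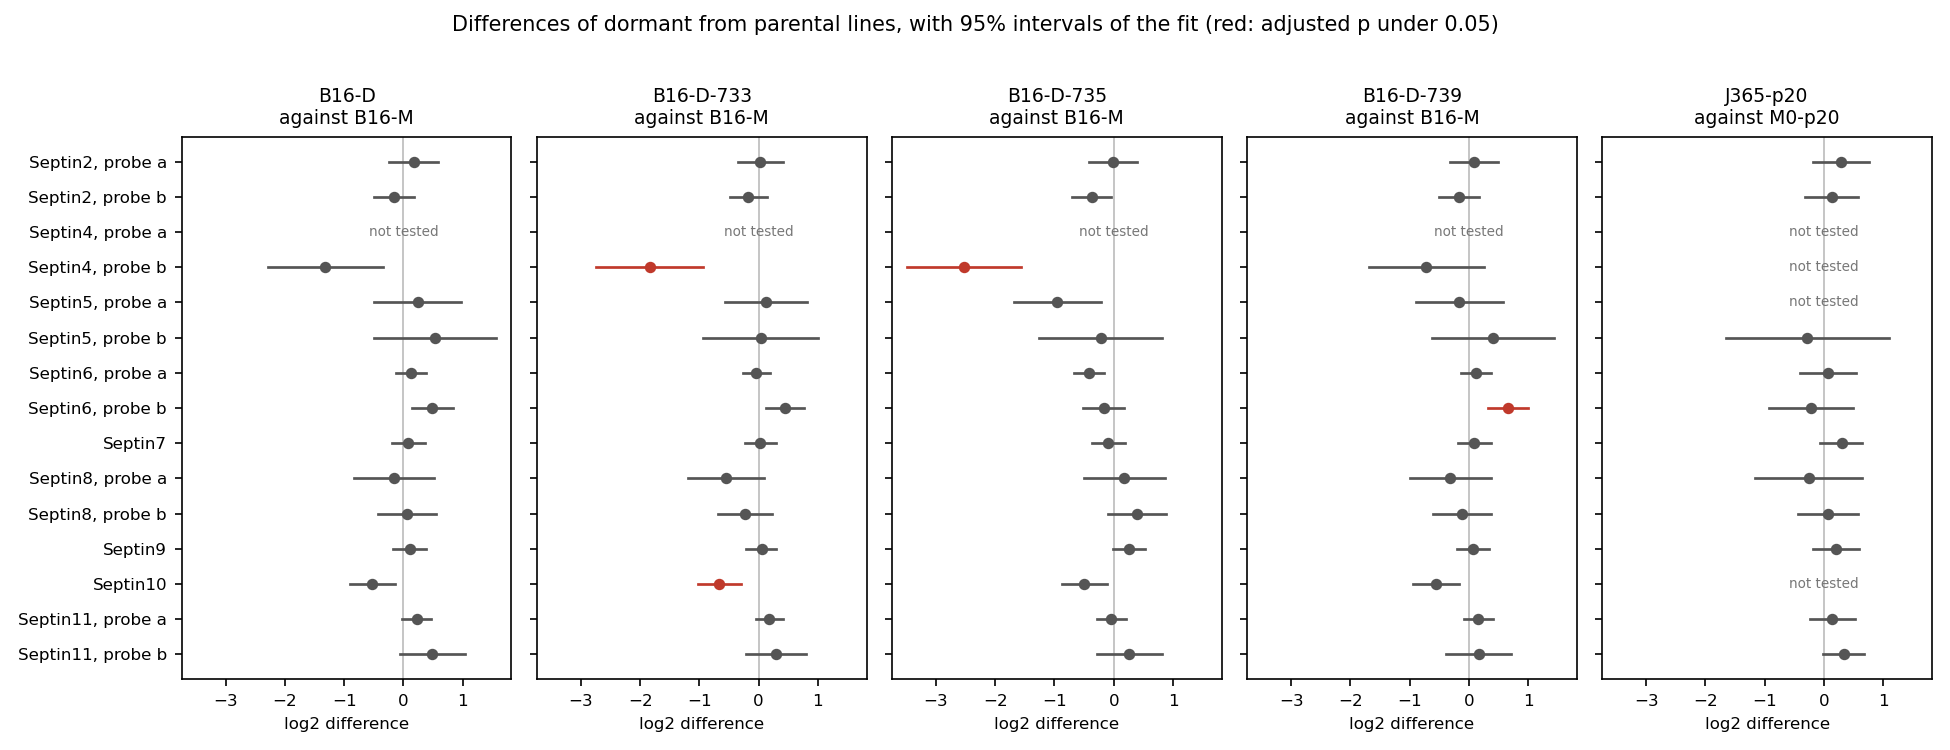
Fitted log2 difference (x axis) of each dormant line from its parental line for the 15 septin probes (y axis), with the 95% interval of the fit. Red marks an adjusted p under 0.05, which 4 of the 56 melanoma differences and none of the 11 leukemia differences reached, and "not tested" marks probes too dim for the fit.

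Septin4 gave the widest spread among the melanoma lines. At probe b it was at -2.84, -2.93 and -2.42 in B16-M, at -5.07, -3.44 and -3.63 in B16-D replicates 0, 1 and 3, and at -4.38, -4.93, -4.63 and -4.32 in B16-D-733. It was at -6.22, -4.96 and -4.60 in B16-D-735 and at -3.91, -3.09 and -3.35 in B16-D-739. Every array of the 4 dormant lines lay below every array of B16-M, and 2 of 3 B16-D, 3 of 4 B16-D-733, 2 of 3 B16-D-735 and 3 of 3 B16-D-739 arrays were above background. The 4 lines are set against the same B16-M arrays, and how many of all probes lie below B16-M in this way was not counted.

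In B16-D-735 Septin4 fell by 2.53 relative to B16-M (SE 0.45, 0.173-fold, 95% interval from 0.0888 to 0.339, adjusted p = 0.00442). This call stood in all 15 alternatives run (adjusted p from 0.000476 to 0.0497), and within slides 1, 2 and 3 the difference was -2.17, -3.29 and -2.12. Background correction by normexp moved it to -1.09. In B16-D-733 Septin4 fell by 1.83 (SE 0.42, adjusted p = 0.0207), with -2.21, -1.45 and -1.78 within the slides and -0.87 after normexp. That call was lost without B16-M replicate 1 or 2, without B16-D-733 replicate 1 or 2, or with B16-D replicate 2 included (adjusted p 0.0514 to 0.109), and it stood with B16-D-733 replicates 1 and 3 averaged (adjusted p = 0.0470) and with the date as a block (-2.28, adjusted p = 0.0325). The 1 undated B16-D-733 array differed from B16-M by -1.65.

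The other dormant lines did not pass the test for Septin4. The difference was -1.32 (95% interval from -2.28 to -0.35, adjusted p = 0.130) in B16-D and -0.72 (95% interval from -1.68 to 0.25, adjusted p = 0.557) in B16-D-739. After normexp the difference in B16-D was -0.60 with an adjusted p of 0.0492. Without B16-D replicate 0 it was -0.80, a move of over 1.5 times.

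Septin10 was at 0.31, 0.19 and 0.69 in B16-M and at -0.17, -0.10 and -0.13 in B16-D. It was at -0.22, -0.13, -0.21 and -0.48 in B16-D-733, at -0.42, -0.12 and 0.23 in B16-D-735 and at -0.31, -0.27 and 0.09 in B16-D-739. B16-D, B16-D-733 and B16-D-739 do not overlap with B16-M, and 1 array of B16-D-735 does.

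In B16-D-733 Septin10 fell by 0.66 relative to B16-M (SE 0.17, adjusted p = 0.0365), with -0.90, -0.40 and -0.62 within slides 1, 2 and 3. The call is at the edge of the threshold. It stood in 5 of 18 alternatives and was lost with the date as a block (-0.65, adjusted p = 0.146), when any 1 of the 7 arrays of the 2 lines was left out (adjusted p 0.0515 to 0.170) and when B16-D-733 replicates 1 and 3 were averaged (adjusted p = 0.0721). In B16-D, B16-D-735 and B16-D-739 the differences were -0.53, -0.50 and -0.56 (adjusted p = 0.129, 0.152 and 0.128). With the slide as a block, Septin10 passed the test in these lines too, with -0.64, -0.50 and -0.56 (adjusted p = 0.0263, 0.0441 and 0.0343).

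Septin6 probe b was at -1.24, -1.50 and -1.44 in B16-M and at -0.94, -0.73 and -0.53 in B16-D-739, with no overlap. It rose by 0.66 in B16-D-739 (SE 0.16, 1.58-fold, adjusted p = 0.0361), with 0.91, 0.76 and 0.31 within slides 1, 2 and 3. The replicate numbers of these lines pair arrays of 1 slide, and with the number as a block the adjusted p was 0.0537. The call was also lost without B16-M replicate 1 or 2 and without B16-D-739 replicate 1 or 2 (adjusted p 0.105 to 0.151). Probe a of Septin6 gave 0.12 (adjusted p = 0.775) in the same comparison. In B16-D and B16-D-733, Septin6 probe b differed from B16-M by 0.49 and 0.44 (adjusted p = 0.114 and 0.113), and without B16-D replicate 0 the first was 0.64 with an adjusted p of 0.0325.

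Septin11 probe b passed the test against B16-M, among the alternatives run, in the fit with the date as a block alone. It was at 1.56, 1.26 and 1.36 in B16-M, at 2.56, 1.43 and 1.66 in B16-D and at 2.06, 1.56, 1.64 and 1.48 in B16-D-733. In both dormant lines the first of these values, from the undated array, is the highest. Without the block the differences were 0.49 and 0.29 (adjusted p = 0.336 and 0.617), and with it 0.99 and 0.85 (adjusted p = 0.0158 and 0.0278), where the undated arrays alone, 1 in each dormant line, gave 1.17 and 0.67.

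The further lines were set against B16-D to ask what changed after the first dormant line. In B16-D-733 and in B16-D-739 against B16-D, 0 of 14 septin probes were called, with 0 at an unadjusted p under 0.05 (limma), beside 0.459% and 0.303% of all probes called. In B16-D-735 against B16-D, 3 were lower, both probes of Septin6 and probe a of Septin5, beside 4.18% of all probes lower and 8.24% called in all. These 3 comparisons share the B16-D arrays. With the date as a block none of the 3 calls in B16-D-735 stood (adjusted p = 0.0642 and 0.117 for Septin6 probes a and b and 0.273 for Septin5), while Septin7 and Septin11 probe b were lower, with differences of -0.40 and -0.73 (adjusted p = 0.0447 and 0.0433). Against the 1 undated B16-D array the differences were -0.47 and -0.33 for Septin6 probes a and b and -0.59 for Septin5.

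Septin6 probe a was at -2.35, -2.36 and -2.32 in B16-D-735, the narrowest line at this probe, and at -1.87, -1.57 and -1.93 in B16-D. It fell by 0.55 (SE 0.12, adjusted p = 0.0111) and probe b fell by 0.65 (SE 0.16, adjusted p = 0.0236) in B16-D-735 relative to B16-D. For probe b the values were -1.67, -1.68 and -1.33 against -1.22, -0.68 and -0.81. Neither probe overlaps between the lines, and on slides 1 and 3, which hold both lines, probe a differed by -0.60 and -0.43 and probe b by -0.37 and -0.86. The call of probe a stood in 12 of 15 alternatives and was also lost without B16-D replicate 1 (adjusted p = 0.0516). The call of probe b was also lost without B16-D replicate 1 or 3 and without B16-D-735 replicate 0 or 2 (adjusted p 0.0695 to 0.104).

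Septin5 probe a was at -3.58, -2.43 and -2.62 in B16-D-735 and at -2.29, -1.22 and -1.55 in B16-D. The lines do not overlap, and it fell by 1.19 (SE 0.34, adjusted p = 0.0489), at the edge of the threshold. This call was lost without B16-D replicate 1 or 3 and without any 1 array of B16-D-735 (adjusted p 0.0550 to 0.185), stood in 6 of 16 alternatives, and on slides 1 and 3 the difference was -0.86 and -0.88. Septin5 probe b gave -0.76 (adjusted p = 0.427). In a fit of the 2 lines alone none of the 3 calls stood (adjusted p = 0.206, 0.250 and 0.286 for Septin6 probes a and b and Septin5). With the slide as a block Septin5 probe a gave -1.03 (adjusted p = 0.0721), and Septin8 probe b was higher by 0.48 (adjusted p = 0.0306), with 0.56 and 0.55 on slides 1 and 3.

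B16-D-735 also differed from the other melanoma lines in fibroblast markers. Of the list Col1a1, Col1a2, Pdgfra and Dcn, 3 were above background on every B16-D-735 array, against 1 or 2 in the other melanoma lines, while Pdgfra was above it on no B16-D-735 array and on all 3 B16-M arrays. Dcn was at -1.94 ± 1.09 (SD, n = 3) in B16-D-735 and was above background on no other melanoma array. The summed level of the list was 0.11 to 0.59 in B16-D-735 and -1.89 to -0.43 in the other melanoma lines. Their part in the septin differences was not tested, and in cultures a smaller share of a cell type and less RNA per cell cannot be told apart.

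**Figure D4:**
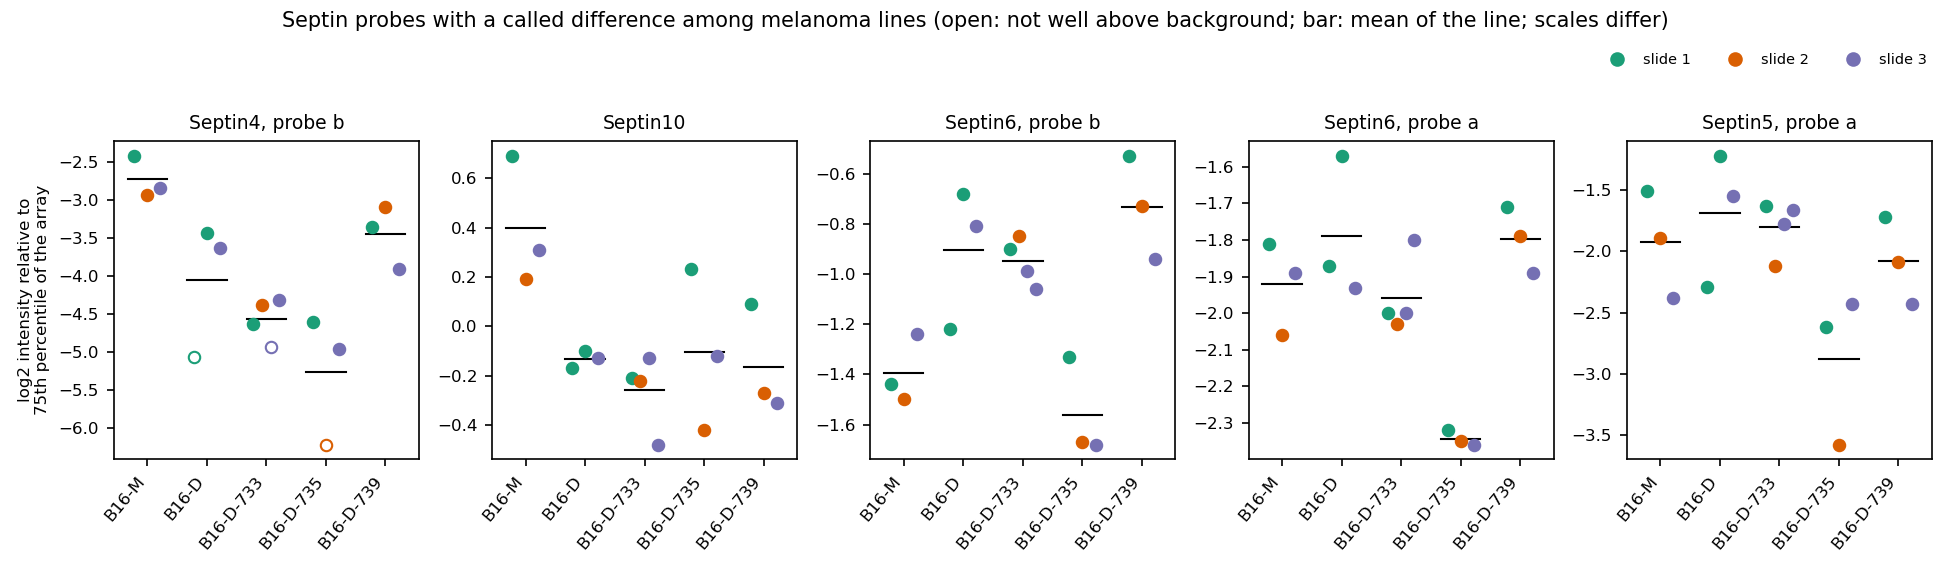
The 5 septin probes with a called difference among melanoma lines, on the 16 melanoma arrays compared, with lines on the x axis and the log2 intensity relative to the array's 75th percentile on the y axis, on a scale of its own in each panel. Points are arrays coloured by slide, open where not well above background, and bars are line means; Septin4 probe b is highest in B16-M on every slide.

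Septin9 was examined in both tumours, since the study reports more SEPTIN9 protein, by mass spectrometry, in dormant cells of either kind. The values here are of the transcript, and the protein was not examined. The study also plots transcript changes for the proteins shared by its models, SEPTIN9 among them, and these are not compared here. In melanoma it was at 3.8, 3.73 and 3.97 in B16-M and at 3.97, 4.0 and 3.86 in B16-D. It was at 3.8, 3.77, 4.13 and 3.84 in B16-D-733, at 4.06, 4.08 and 4.11 in B16-D-735 and at 3.76, 3.84 and 4.13 in B16-D-739. B16-D-735 lies above all arrays of B16-M and B16-D, and the other lines overlap with B16-M.

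The Septin9 transcript differed from B16-M by 0.11 in B16-D (1.08-fold, 95% interval from 0.891 to 1.3, adjusted p = 0.711), by 0.05 in B16-D-733, by 0.25 in B16-D-735 (1.19-fold, 95% interval from 0.984 to 1.44, adjusted p = 0.350) and by 0.07 in B16-D-739. None passed the test. For B16-D the sign turned to -0.01 with B16-D replicate 2 included. In leukemia Septin9 was at 2.50, 2.49, 2.10 and 2.26 in M0-p20 and at 2.54, 2.47 and 2.60 in J365-p20, which overlap. The difference of 0.20 (1.15-fold, 95% interval from 0.878 to 1.51, adjusted p = 0.924) did not pass the test. At this 1 probe, changes of over 1.3-fold in B16-D and over 1.51-fold in J365-p20 lie outside these intervals. Septin9 transcripts that the probe does not report are not covered. The dormancy change of Septin9 in melanoma minus that in leukemia was -0.09 (SE 0.18, adjusted p = 0.998).

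In leukemia 11 septin probes were tested in J365-p20 against M0-p20, and 0 were called, with 0 at an unadjusted p under 0.05 (limma), beside 0.998% of all probes. Septin10, Septin5 probe a and both probes of Septin4 were too dim to be tested. Septin11 probe b was at 2.53, 2.42 and 2.44 in J365-p20 and at 2.03, 2.21, 2.16 and 2.15 in M0-p20, and Septin7 at 4.37, 4.34 and 4.30 against 3.90, 4.13, 4.18 and 3.96. In both the lines do not overlap, and the differences were 0.33 (SE 0.14, adjusted p = 0.723) and 0.30 (SE 0.15, adjusted p = 0.824). How many of all probes lie apart between these lines was not counted, so nothing is read from the lack of overlap. The other 9 probes overlap, with differences between -0.28 and 0.28.

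The dormancy change itself was compared between the tumours as B16-D minus B16-M less J365-p20 minus M0-p20. Of 11 septin probes, 0 were called, with 1 at an unadjusted p under 0.05 (limma), beside 1.24% of all probes. The largest fitted values were 0.82 (SE 0.78, adjusted p = 0.990) for Septin5 probe b and 0.70 (SE 0.32, adjusted p = 0.570) for Septin6 probe b.

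Among the regulators and partners, 2 of 8 tested were lower in J365-p20 than in M0-p20, beside 0.53% of all probes. Cdc42ep3 was at least 3.73-fold lower (adjusted p = 0.00021), being above background on all 4 M0-p20 and no J365-p20 arrays. It passed the filter through M0-p20 alone, which fixed its direction. Cdc42ep4 fell by 1.60 (SE 0.23, adjusted p = 0.0200). Cdc42ep2 gave -0.50 (adjusted p = 0.946), and Cdc42ep1 and Cdc42ep5 were too dim to be tested. In melanoma minus leukemia, the dormancy change was higher for 2 of 8 tested, beside 154 of 26788 probes higher and 1.24% called. For Cdc42ep4, 1 of these 2, the change differed between the tumours by 1.54 (adjusted p = 0.000493). Cdc42ep2, and Cdc42ep4 in this comparison of changes, are named after their values were seen. In melanoma 0 of 10 were called against B16-M in any dormant line, beside 3.71% to 5.62% of all probes. In B16-D-735 against B16-D, 1 of 10 was called, beside 8.24% of all probes. This was Cdc42ep4, which rose by 0.40 (adjusted p = 0.0316).

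Among genes of cytokinesis, 1 of 15 tested was called in B16-D-735 against B16-M, beside 2.01% of all probes lower and 5.01% called in all. This was Rock2, a kinase of the contractile ring, which fell by 0.60 (adjusted p = 0.0312). Its other 2 probes gave -0.60 and -0.55. In the remaining comparisons of dormant with parental lines and of the further lines with B16-D, 0 of 15 were called, beside 0.303% to 8.24% of all probes.

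Across lines, the order of Septin9 ran from B16-D-735 at 4.08 ± 0.03 (SD, n = 3) through B16-D at 3.94 ± 0.07 (SD, n = 3), B16-D-739 at 3.91 ± 0.19 (SD, n = 3), B16-D-733 at 3.88 ± 0.17 (SD, n = 4) and B16-M at 3.83 ± 0.12 (SD, n = 3) to J365-p20 at 2.54 ± 0.07 (SD, n = 3) and M0-p20 at 2.34 ± 0.19 (SD, n = 4). Neighbours overlap from B16-D to B16-M and between the leukemia lines. Septin10 ran from B16-M at 0.40 ± 0.26 (SD, n = 3) to B16-D-733 at -0.26 ± 0.15 (SD, n = 4) with every melanoma neighbour overlapping, and then dropped below background in leukemia. Septin11 probe a and Septin2 probe a had the narrowest ranges of line means, from 4.47 to 4.73 and from 4.67 to 4.95, followed by Septin7 from 3.96 to 4.34 and Septin2 probe b from -1.58 to -1.20.

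The genes most like Septin9 over the 23 arrays, among 14759 probes above background on all of them, were Sppl2b, Myo7a and Clptm1 (Pearson r of 0.99 each). Those most like Septin10 were Meis2, Apoe and Enho (r rounding to 1), and those most like Septin5 probe a were Car14, Bambi and Ctnnd1 (r of 0.99). These correlations are descriptions over 16 melanoma and 7 leukemia arrays, and these 3 septin probes do not overlap between the tumours.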

How the data were processed

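RNA of 24 samples was hybridized to Agilent mouse arrays, 1 per sample, after labelling 50 ng of total RNA. The authors deposited, per the file headers, background-subtracted intensity for each spot from Agilent Feature Extraction 10.7.3.1. The deposited series table holds the same intensities, and no scaling between arrays had been applied. Spots marked as outliers, 2468 in all, did not enter the values, 0 spots were saturated, and repeated spots were averaged per probe. From the deposited intensities, log2 values minus the array's 75th percentile over non-control spots were computed. Probes were named through their RefSeq transcript.

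Lines were compared per probe by two-sided tests in limma 3.58.1 (R 4.3.3), in fits of the 16 melanoma arrays, of the 7 leukemia arrays, and of 23 arrays for comparisons across tumours. Tested probes were well above background on at least 3 arrays of the fit (of each tumour for the difference of changes), and p-values were adjusted by Benjamini-Hochberg over all of them, with a threshold of 0.05. Intervals are 95%. Fits were checked on simulated data. The number of arrays limits the precision. GeneSpring, named in the study's methods, was not used, and no normalization or test for the arrays is given in the sources used here.

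The septins, lists and tests were chosen with earlier results of these data known. All 9 septins are named with every probe. Of further lists, called genes with arrays of the lines apart and above background throughout 1 line are named, up to the 3 with the greatest change in each list and comparison. Same-numbered arrays deviated together for B16-M with B16-D-733 (r of 0.54, 0.34 and 0.80) and with B16-D-739 (0.72, 0.56 and 0.81), so the numbers were taken to pair these lines. Same-numbered arrays of B16-M and B16-D-739 also share a slide, while for B16-D-733 only replicate 2 does. These correlations therefore cannot tell pairing by number from an effect of the slide. Alternatives were normexp background correction (on the median spot brightness, in place of the mean that was planned), quantile normalization, other filters, slide, replicate number or a date in the title as a block, other sets of arrays, 1 probe per gene, and leaving out each array. Python 3.11.15 and matplotlib 3.10.9 were used for tables and figures.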

Additional observations from a re-analysis of the deposited data

Results flagged for a closer look

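In B16-D replicate 2, the array left out of the comparisons, 5 septin probes were above background and brighter than on any other melanoma array. Septin4 probe a was at -4.07 (highest elsewhere -4.32) and probe b at -1.75 (-2.42). Septin5 probe a was at -0.94 (-1.22) and probe b at -1.20 (-3.56), and Septin6 probe a was at -0.80 (-1.57). On that array 90.3% of spots were well above background. How many of all probes were brightest there was not counted, so the 5 are not read as a trait of the septins.

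Single arrays stood apart in 3 of 45 combinations of a septin probe with a line of 4 arrays, where chance flags about 1 in 20 such groups. In B16-D-733, Septin6 probe a was at -1.80 in replicate 3 against -2.03 to -2.0 in the others, Septin7 was at 4.29 in replicate 0 against 3.97 to 4.02, and Septin11 probe a was at 4.54 in replicate 3 against 4.72 to 4.75.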

How the results depend on the processing

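The normexp correction, the date in the title as a block and the average of B16-D-733 replicates 1 and 3 were chosen after seeing the data. Values of single probes were counted where the probe was called before any alternative, and for some chosen comparisons of Septin4, Septin9 and Septin10. Of these 376 values, 313 kept direction and side of the threshold, 57 lost the call and 4 gained one. The other 2 changed sign, both Septin9 in B16-D against B16-M (-0.00 after quantile normalization and -0.01 with B16-D replicate 2). Calls gained by other septin probes, such as Septin11 probe b with the date as a block, are not among the 376. Septin probes called in B16-D against B16-M went from 0 to 1 with normexp, with the slide block and with the date block. In B16-D-733 against B16-M they went from 2 to 1 with normexp, without a filter, with the filter on every array, with only the 2 lines and with replicates 1 and 3 averaged, and to 0 with B16-D replicate 2. In B16-D-735 against B16-M they went from 1 to 2 without a filter and with the replicate block, and to 3 with the slide block. In B16-D-739 against B16-M they went from 1 to 0 without a filter, with the replicate block and with only the 2 lines, and to 2 with the slide block. In B16-D-735 against B16-D they went from 3 to 1 without a filter and with 1 probe per gene, and to 0 with only the 2 lines, and the slide and date blocks exchanged which probes were called. Leaving out each array gave 0 to 1 in B16-D, B16-D-733 and B16-D-739 against B16-M, 0 to 4 in B16-D-735 against B16-D, 7 to 9 in B16-M against M0-p20, and 1 throughout in B16-D-735 against B16-M. The highest minus the lowest line mean fell under normexp to 2.17 for Septin6 probe b and to 3.53 for Septin10. Normexp was run with an offset of 50 added to each intensity before the log, which narrows log2 differences of dim probes. How much of the fall goes with the offset was not tested. The cause of the other changes was not tested, except that fewer arrays or probes entered some fits. The replicate block otherwise changed no count of called septin probes. In lines that share only numbers, the numbers did not pair arrays (r from -0.33 to 0.79 for B16-D-735 and B16-M). Quantile normalization moved the median of all probes in B16-M against M0-p20 from -0.138 to -0.070.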

Other observations

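B16-D replicate 0, whose title gives the line as 16D, lay away from B16-D replicates 1 and 3 in several septins. Septin4 probe b was at -5.07 against -3.44 and -3.63, Septin11 probe b at 2.56 against 1.43 and 1.66, and Septin7 at 4.41 against 3.96 and 4.01. Replicates 0 and 1 lay on the same slide, and replicate 0 alone has no date in its title. B16-D-733 replicate 0, also undated, was at 2.06 against 1.48 to 1.64 for Septin11 probe b and at 4.29 against 3.97 to 4.02 for Septin7. No test was run on these 2 arrays alone.

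All 14 septin probes had a fitted value below 0 in B16-D-733 against B16-D, from -0.52 to -0.01, and none passed the test. All of them share the same 7 arrays. The median difference was -0.14 over the septin probes and -0.001 over all probes. How many of all probes had a fitted value below 0 was not counted, so nothing is read from the shared sign.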
